A study of Oryctolagus cuniculus with 39 samples.

Results

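The NADPH oxidase family was followed through the first 12 weeks of life in rabbit brown adipose tissue. The members were chosen by name: NOX5, NOX4, CYBB, CYBA, NCF1 and NCF4. Of these 6 symbols, 5 were found in both expression tables, which list 20589 genes for the stromal vascular fraction (SVF, the cells other than adipocytes that are left after a fat pad is dissociated) and 20183 for whole tissue. CYBA was found in neither by symbol or gene identifier and was not analysed here. NOX5 was put on the list because of its own values in the SVF libraries, where it is higher at later ages and more so in the interscapular depot. Its SVF levels are therefore given as a description without a test, while its levels in whole tissue and those of the other members were tested.

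The 36 libraries came from New Zealand White rabbits, with no other treatment or genotype in the labels. They form 12 groups of 3: whole interscapular brown fat (total iBAT), the SVF of interscapular brown fat (iBAT SVF) and the SVF of subscapular brown fat (sBAT SVF), each at day 1 and at 3, 6 and 12 weeks of age. The labels do not say whether replicates, or the total and SVF samples, came from separate animals, so p-values measure the spread between these samples only. Values are FPKM (sequenced fragments divided by the length of the transcript and by the size of the library), which can be set side by side between genes within a library, and the total and SVF tables were normalised separately.

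NADPH oxidases are membrane enzymes that pass electrons from NADPH to oxygen and so make superoxide or hydrogen peroxide. CYBB (also called NOX2) is the catalytic subunit of phagocytes, works as a pair with CYBA, and is switched on when cytosolic subunits, NCF1 and NCF4 among them, and the small GTPase RAC assemble on it. NOX4 also pairs with CYBA but is active without cytosolic subunits and releases mainly hydrogen peroxide, whereas NOX5 needs none of these partners and is opened by calcium through its own EF hands. Mice and rats lack a NOX5 gene, so rabbits are among the laboratory animals in which it can be seen.

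Some facts of the libraries touch all results. The brown fat gene UCP1 was at 5102 to 5780 FPKM in total iBAT at day 1 and at 0.44 to 4.21 at 12 weeks, so the older samples labelled brown fat held little of this defining transcript. The genes ADORA1 and LOC100009266 together held 63.9% to 80.4% of all FPKM in the sBAT SVF libraries of 3 weeks, 26.2% to 37.3% in those of day 1 and 0.497% to 20.3% in the other SVF libraries, which lowers every other FPKM in the same library. The median log2 difference of all tested genes in the sBAT SVF was -0.88 at 3 weeks against day 1 and 0.41 at 12 weeks against day 1. After median ratio scaling, which sets the median gene about equal between libraries, these medians were -0.04 and 0.01. Values after this scaling are therefore given beside the sBAT SVF tests as deposited. The SVF libraries also held adipocyte transcripts, with ADIPOQ at 220 to 1277 FPKM in the iBAT SVF and 51.2 to 1098 in the sBAT SVF. At day 1 the summed level of 4 skeletal muscle markers was 17 to 1778 FPKM in the iBAT SVF and 543 to 2329 in the sBAT SVF. In bulk samples fewer cells of a type and less RNA per cell cannot be told apart.

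NOX5 (gene ID 100301540) was the member with the widest range of levels. Its 3 iBAT SVF values were 0.79, 1.63 and 1.34 FPKM at day 1 and 3.28, 3.42 and 2.69 at 3 weeks. They were 21.1, 19.7 and 10.5 at 6 weeks and 186, 48.4 and 75.4 at 12 weeks. The groups do not overlap from one age to the next. The share of all genes without overlap in this fraction was 46.5% between day 1 and 3 weeks. It was 31.1% between 3 and 6 weeks and 38.4% between 6 and 12 weeks. The 12-week libraries differ among themselves in NOX5 by more than those of any earlier age. The sBAT SVF values were 0.58, 0.62 and 0.2 FPKM at day 1, 1.25, 1.5 and 1.15 at 3 weeks, 5.74, 8.03 and 7.07 at 6 weeks and 2.32, 3.84 and 17.5 at 12 weeks. In this depot the 12-week libraries span the 6-week range, with replicate 3 well above the other two.

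Ordered by mean FPKM, NOX5 in the SVF was highest in iBAT at 12 weeks (103 ± 72.9, SD, n = 3), followed by iBAT at 6 weeks (17.1 ± 5.78), sBAT at 12 weeks (7.89 ± 8.37), sBAT at 6 weeks (6.95 ± 1.15), iBAT at 3 weeks (3.13 ± 0.387), sBAT at 3 weeks (1.3 ± 0.18), iBAT at day 1 (1.25 ± 0.427) and sBAT at day 1 (0.467 ± 0.232). Neighbours in this order whose values overlap are sBAT at 12 weeks with both groups beside it, and sBAT at 3 weeks with iBAT at day 1. At each of the 4 ages all 3 iBAT values lay above all 3 sBAT values. The ratio of means was 2.69 at day 1, 2.41 at 3 weeks, 2.46 at 6 weeks and 13.1 at 12 weeks. Values without overlap between the depots were common among all genes (26.6% at day 1, 73.2% at 3 weeks, 33% at 6 weeks and 46.9% at 12 weeks). The 3-week difference turned on the scale of the sBAT libraries: on the log2 scale it was 0.84 as deposited and -0.01 after median ratio scaling, against 0.61 and 0.5 at day 1 and 1.14 and 1.38 at 6 weeks.

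On the log2(FPKM + 1) scale, which understates the change of low genes, the NOX5 difference between 12 weeks and day 1 was 5.32 (SE 0.46) in the iBAT SVF and 2.2 (SE 0.46) in the sBAT SVF, or 5.33 and 1.82 after median ratio scaling. The difference between the depots at 12 weeks was 3.74 (SE 0.46), or 4.01 after scaling. The difference between the depots in their change from day 1 was 3.12 (SE 0.65), or 3.51 after scaling. Without the 12-week sBAT library of replicate 3, the sBAT difference from day 1 became 1.46 and the depot difference at 12 weeks 4.47. These values describe why NOX5 was chosen and carry no test.

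**Figure D1:**
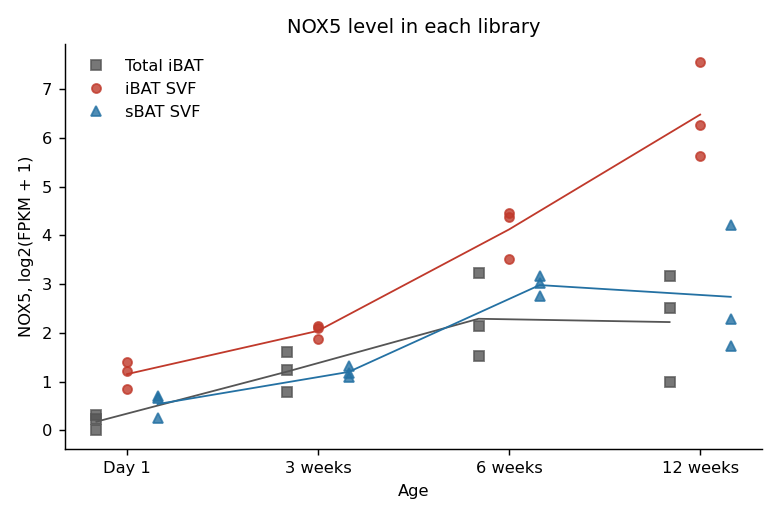
NOX5 in each of the 36 libraries, as log2(FPKM + 1) on the vertical axis against age, with 1 symbol per library and lines through the group means. The iBAT SVF libraries of 12 weeks, at 48.4 to 186 FPKM, lie above all others, and the sBAT SVF libraries of 12 weeks spread from 2.32 to 17.5.

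NOX5 was tested in whole tissue because the rule that chose it used its SVF values. Whole tissue also holds the interscapular stroma, and the members were chosen with earlier results of these data known. The test is therefore not independent of the choice. In total iBAT the values were 0, 0.24 and 0.17 FPKM at day 1, 1.35, 2.03 and 0.73 at 3 weeks, 8.32, 3.38 and 1.86 at 6 weeks and 4.73, 0.98 and 7.94 at 12 weeks. Every later library lies above every day 1 library (at 12 weeks 57.1% of all genes had no overlap with day 1), and the 6-week and 12-week libraries overlap widely. NOX5 rose by 2.11 (log2, SE 0.51) at 6 weeks, with a limma adjusted p of 0.00491, and by 2.04 (SE 0.51) at 12 weeks, with a limma adjusted p of 0.00645. At 3 weeks the difference was 1.03 (SE 0.51) and did not pass the test (limma adjusted p 0.127). NOX5 was under 1 FPKM in every day 1 library. It thus met the filter (at least 1 FPKM in at least 3 libraries) only through the later ages, where it is high.

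In total iBAT, 2 of the 4 tested members were called at 12 weeks against day 1 (limma, adjusted p under 0.05), NOX5 and CYBB, both higher, where 47% of the 12853 tested genes were called. Of all genes, 31.3% were called higher. The share of called members, 2 of 4, is close to that of all genes. CYBB and NCF4, like NOX5, were under 1 FPKM in every day 1 library and so met the filter only through later ages. Markers of adipose progenitors and fibroblasts were also higher in sum at the later ages in this tissue. All 11 were in the table and none was at 0 in all 3 libraries of a group. Their summed level was 1392 to 2285 FPKM at day 1 and 7085 to 11910 at 3 weeks. It was 7722 to 17687 at 6 weeks and 5147 to 10402 at 12 weeks. At 12 weeks 8 of 11 were called higher and 1 lower. Of 8 tested adipocyte markers, 6 were called higher and 1 lower. Within the 12-week group, the library with the lowest NOX5 had the lowest COL1A1 (997 FPKM) and the one with the highest NOX5 had the highest (3554). In the sBAT SVF at 12 weeks, COL1A1, a fibroblast collagen named here after its values were seen, was at 5510 FPKM in replicate 3 and at 1732 and 2175 in the others. In the iBAT SVF it was at 7548 to 13416 FPKM at day 1 and at 11201 to 13075 at 12 weeks, which overlap. The part of progenitors, fibroblasts and adipocytes in the NOX5 levels was not tested.

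Because FPKM can be compared between genes within a library, the place of NOX5 among the catalytic subunits is free of the scaling between libraries. The 6 catalytic genes found in each table were NOX1, CYBB, NOX4, NOX5, DUOX1 and DUOX2. In the iBAT SVF, NOX5 made up 9.96% to 21% of their summed FPKM at day 1, 28.4% to 29.2% at 3 weeks, 54.5% to 69.3% at 6 weeks and 81.4% to 96.1% at 12 weeks. CYBB held 64.2% to 68.9% of the sum at day 1 and 2.01% to 7.62% at 12 weeks. The leading catalytic transcript of this fraction thus went from CYBB to NOX5 between 3 and 6 weeks, while the level of CYBB itself stayed between 3.89 and 7.99 FPKM.

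The sBAT SVF kept a different make-up. CYBB held 76% to 76.9% there at day 1 and 17.7% to 52.5% at 12 weeks, and NOX4 11.1% to 15.6% at day 1 and 25.8% to 39.6% at 12 weeks. NOX5 held 2.92% to 6.13% at day 1 and 11.7%, 14.2% and 55.2% at 12 weeks, the last in replicate 3. Only in that library of the 12-week sBAT group did NOX5 lead the family.

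**Figure D2:**
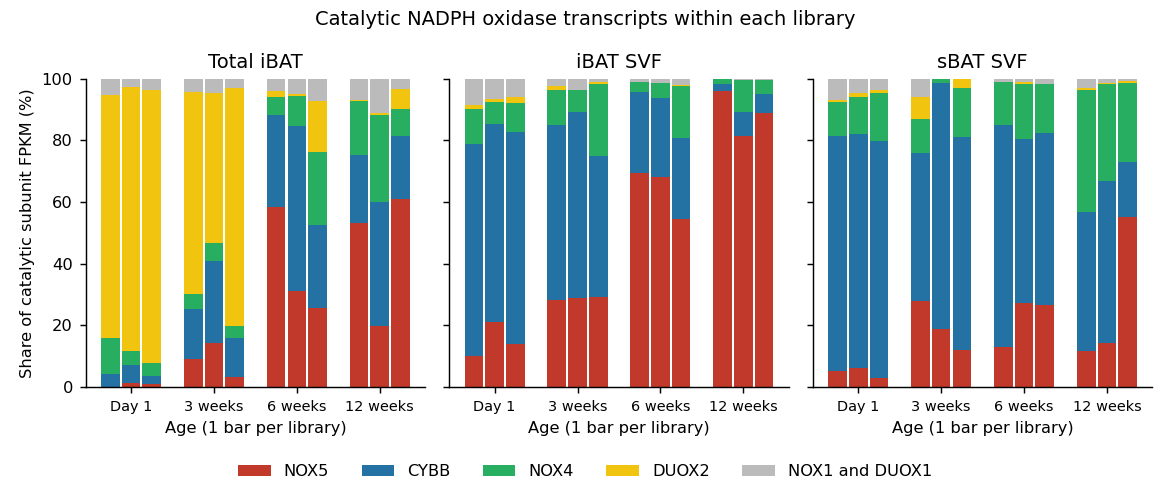
Share of each catalytic NADPH oxidase gene in the summed FPKM of the 6 catalytic genes (vertical axis, percent), with 1 bar per library ordered by age and replicate in each tissue. NOX5 takes 81.4% to 96.1% in the iBAT SVF at 12 weeks, and DUOX2 takes 78.8% to 88.3% in total iBAT at day 1.

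In total iBAT the starting point was another gene. DUOX2, a catalytic subunit that carries an added peroxidase-like domain and is best known from thyroid and mucosal epithelium, was at 10.4, 14.2 and 16.2 FPKM at day 1 and 9.83, 6.98 and 16.8 at 3 weeks. It was at 0.28, 0.07 and 1.19 at 6 weeks and 0.05, 0.03 and 0.85 at 12 weeks. The early and late libraries do not overlap. DUOX2 fell by 3.51 (log2, SE 0.35) from day 1 to 12 weeks, with a limma adjusted p of 1.07e-05. Its maturation factors DUOXA2 and DUOXA1, which bring DUOX proteins to the membrane, fell by 3.2 (SE 0.39, limma adjusted p 4.81e-05) and by 2.24 (SE 0.3, limma adjusted p 0.000112).

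DUOXA2 was at 5.18, 10.2 and 14.1 FPKM at day 1, at 16, 9.54 and 26.9 at 3 weeks and at 0.34 or less in all 12-week libraries. DUOXA1 was at 2.93 to 5.1 at day 1, 3.76 to 11.3 at 3 weeks and at most 0.16 at 12 weeks. In the SVF of either depot no library of any age had DUOX2 above 0.32, DUOXA2 above 0.45 or DUOXA1 above 0.51 FPKM. DUOX2 held 78.8% to 88.3% of the catalytic FPKM of total iBAT at day 1 and 0.562% to 6.52% at 12 weeks, whereas NOX5 held 0% to 1.44% at day 1 and 19.7% to 60.9% at 12 weeks. The DUOX genes lie side by side in the RefSeq annotation, and the strand setting of the counting is not given in the sources used here, so reads of overlapping neighbours cannot be told apart.

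**Figure D3:**
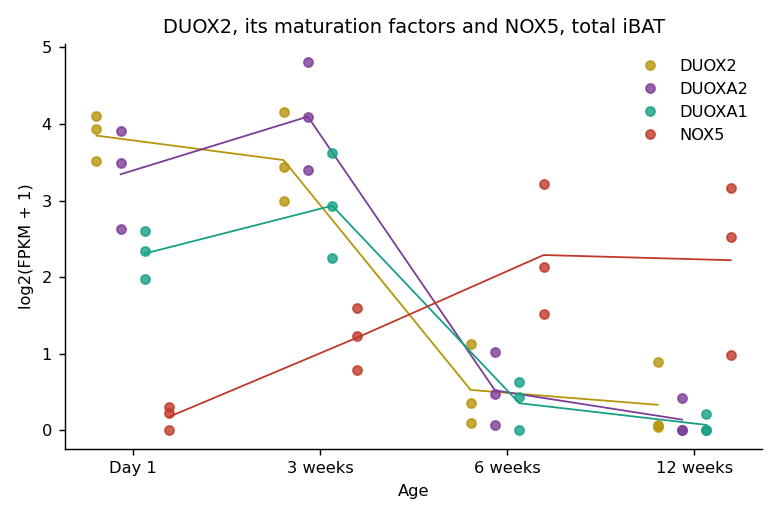
DUOX2, DUOXA2, DUOXA1 and NOX5 in the 12 libraries of total iBAT, as log2(FPKM + 1) against age, with 1 point per library and lines through the group means. DUOX2 stands at 6.98 FPKM or more at day 1 and 3 weeks and at 1.19 or less afterwards, while NOX5 stands at 0.24 or less at day 1.

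NOX4 (gene ID 100339697) was higher at 12 weeks in the stroma of both depots and did not pass the test in whole tissue. Its iBAT SVF values were 0.89, 0.57 and 0.92 FPKM at day 1, 1.28, 0.84 and 2.13 at 3 weeks, 1.02, 1.41 and 3.27 at 6 weeks and 3.19, 6.22 and 3.78 at 12 weeks. Those of the sBAT SVF were 1.22, 1.2 and 1.07 at day 1, 0.49, 0.12 and 1.5 at 3 weeks, 6.2, 5.27 and 4.22 at 6 weeks and 7.83, 8.45 and 8.18 at 12 weeks. In both depots the 12-week libraries lie above all day 1 libraries (54.4% of all genes had no overlap in iBAT and 56.7% in sBAT), and in sBAT the 6-week libraries do so too by a wide margin.

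NOX4 was the 1 member called of 4 tested at 12 weeks against day 1 in the iBAT SVF, where 37.3% of 13274 tested genes were called. It rose there by 1.56 (log2, SE 0.28), with a limma adjusted p of 0.000321, or by 1.57 after median ratio scaling (limma adjusted p 0.000626). It was also the 1 member called of 4 in the sBAT SVF, where 44.1% of genes were called, with a rise of 2.08 (SE 0.28) and a limma adjusted p of 1.16e-05. After median ratio scaling that rise was 1.65 (limma adjusted p 0.000534). At 6 weeks the sBAT rise was already 1.51 (SE 0.28, limma adjusted p 0.000369), or 1.24 after scaling (limma adjusted p 0.00469), while the iBAT difference of 0.62 (SE 0.28) did not pass (limma adjusted p 0.146). In total iBAT NOX4 was at 0.76 to 1.55 FPKM at day 1 and 1.15 to 1.55 at 12 weeks, a difference of 0.24 (SE 0.19, limma adjusted p 0.329). The summed level of the 11 progenitor and fibroblast markers was 22268 to 36104 FPKM at day 1 and 37170 to 44234 at 12 weeks in the iBAT SVF and 9224 to 16294 and 12485 to 22618 in the sBAT SVF, with 6 called higher and 2 lower in each depot and none at 0 in all libraries of a group. After median ratio scaling the sBAT SVF sum was 9615 to 15289 at day 1 and 8604 to 17130 at 12 weeks. With this scaling 5 markers were called higher and 3 lower in the sBAT SVF. The part of these cells in the NOX4 level was not tested.

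**Figure D4:**
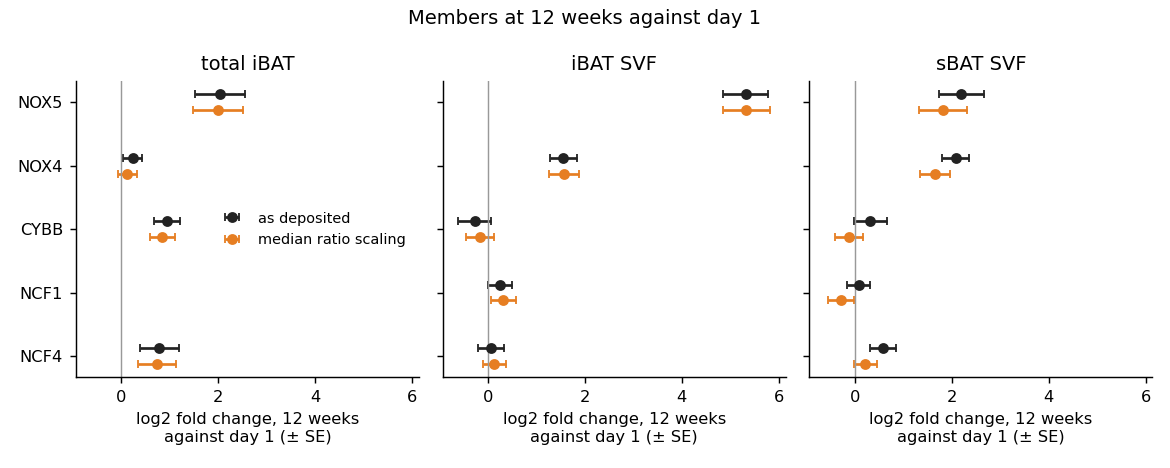
Log2 fold change of each member at 12 weeks against day 1 in the 3 tissues (points, with bars for ± 1 SE), as deposited and after median ratio scaling; NCF1 was below the filter in total iBAT. NOX5 has the largest value in each panel, as chosen in the SVF, and NOX4 is at 1.56 and 2.08 as deposited in the 2 SVF depots.

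CYBB (gene ID 100008801) was higher at all later ages in whole tissue and did not pass the test in the iBAT SVF. In total iBAT its values were 0.55, 0.93 and 0.52 FPKM at day 1, 2.45, 3.8 and 2.77 at 3 weeks, 4.23, 5.79 and 1.95 at 6 weeks and 1.96, 2.01 and 2.66 at 12 weeks. All later libraries lie above all day 1 libraries. The share of all genes without overlap with day 1 was 53% at 3 weeks, 57.7% at 6 weeks and 57.1% at 12 weeks. CYBB rose at 3 weeks by 1.26 (log2, SE 0.27, limma adjusted p 0.0034), when 41.7% of genes were called. It was higher than at day 1 by 1.51 at 6 weeks (SE 0.27, limma adjusted p 0.000662) and by 0.95 at 12 weeks (SE 0.27, limma adjusted p 0.012).

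The summed level of 13 macrophage markers in total iBAT was 63.6 to 84 FPKM at day 1, 108 to 206 at 3 weeks, 78.8 to 254 at 6 weeks and 80 to 122 at 12 weeks, and ADGRE1 was at 0 in all 3 day 1 libraries. At 12 weeks 2 of 11 tested macrophage markers were called higher and none lower. The part of macrophages in the CYBB level was not tested. Total iBAT replicate 3 of 6 weeks was the lowest of its group in CYBB, NCF4 and NOX5. It was also the lowest in the macrophage receptor CSF1R (10.3 FPKM) and the leukocyte marker PTPRC (1.67). The same held for the progenitor and fibroblast markers PDGFRA (11.2) and COL1A1 (2370). This library was the highest of its group in the adipocyte marker ADIPOQ (5200) and the endothelial marker PECAM1 (125).

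CYBB in the iBAT SVF was at 4.99 to 6.63 FPKM at day 1 and 3.89 to 5.2 at 12 weeks, a difference of -0.27 (log2, SE 0.34, limma adjusted p 0.545). In the sBAT SVF it was at 8.33, 7.69 and 5.26 at day 1, 31.8, 15.6 and 14.7 at 6 weeks and 8.87, 14.1 and 5.63 at 12 weeks. The 6-week libraries stand above those of day 1 (52% of all genes had no overlap between these ages). The 12-week libraries overlap those of day 1 and lie below those of 6 weeks, where 37.6% of all genes had no overlap. That drop, -1.04 (SE 0.34), did not pass as deposited (limma adjusted p 0.0513) but did after median ratio scaling (-1.16, limma adjusted p 0.0161). CYBB rose in the sBAT SVF at 6 weeks by 1.36 (SE 0.34, limma adjusted p 0.00357), or by 1.05 after median ratio scaling (limma adjusted p 0.00906). The macrophage sum in the same libraries was 417 to 513 FPKM at day 1, 616 to 907 at 6 weeks and 167 to 472 at 12 weeks, with no marker at 0 in all libraries of a group.

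The sBAT SVF at 6 weeks held 3 called members of 4, NOX4, CYBB and NCF4, all higher than at day 1, where 35.8% of genes were called and 27.5% were called higher. NCF4 (gene ID 100009359), the cytosolic subunit that binds phosphoinositides on the phagosome, was at 2.05, 1.75 and 2.06 FPKM at day 1, 6.4, 3.37 and 4.93 at 6 weeks and 3.99, 5.08 and 1.88 at 12 weeks. It rose at 6 weeks by 0.97 (log2, SE 0.27, limma adjusted p 0.00747), or by 0.7 after scaling (limma adjusted p 0.0338). The call was lost without sBAT replicate 1 of 6 weeks (limma adjusted p 0.0527) and with the 2 dominant genes left out (limma adjusted p 0.0741). At 12 weeks NCF4 differed from day 1 by 0.59 (SE 0.27, limma adjusted p 0.0762), or by 0.22 after scaling (limma adjusted p 0.519). It passed in 1 of 15 alternatives, without sBAT replicate 3 of 12 weeks (0.9, limma adjusted p 0.0102).

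In total iBAT NCF4 was at 0, 0.37 and 0.26 FPKM at day 1, 1.27, 1.24 and 0.52 at 3 weeks, 3.35, 2.56 and 0.21 at 6 weeks and 0.67, 0.95 and 1.73 at 12 weeks. The lowest 6-week library lies inside the day 1 range. NCF4 passed at 6 weeks (1.15, SE 0.4, limma adjusted p 0.0322), where 50.7% of genes were called, and lost the call without any of replicates 1, 2 or 3 of day 1 or replicates 1 or 2 of 6 weeks (limma adjusted p 0.0512 to 0.133) and with no filter (limma adjusted p 0.0557). In the joint test over all 4 ages 2 of 4 members passed in total iBAT, NOX5 and CYBB, where 55.6% of genes did, and NCF4 did not (limma adjusted p 0.12) except without replicate 3 of 6 weeks (limma adjusted p 0.00186). In the iBAT SVF it stayed between 0.76 and 2.48 FPKM at all ages.

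NCF1 (gene ID 100008803), the organiser subunit whose phosphorylation starts assembly on CYBB, was low throughout. Its total iBAT values of 0 to 0.82 FPKM were under the filter, and it was not tested there. The iBAT SVF had it at 2.71, 1.83 and 1.81 FPKM at day 1, 0.87, 1.57 and 0.7 at 3 weeks, 1.11, 1.5 and 1.58 at 6 weeks and 2.6, 4 and 1.75 at 12 weeks. The sBAT SVF had it at 3.25, 3.86 and 2.92 at day 1, 1.22, 0.88 and 0.56 at 3 weeks, 2.68, 2.13 and 1.67 at 6 weeks and 5.51, 3.32 and 2.42 at 12 weeks. As deposited, the 3-week and 6-week libraries of both depots lie below those of day 1, and the 12-week libraries overlap those of day 1. Of all genes, 46.5% at 3 weeks and 38.4% at 6 weeks had no overlap with day 1 in iBAT, and 63.5% and 52% in sBAT. NCF1 did not pass in the iBAT SVF at 3 weeks (-0.62, limma adjusted p 0.0796) or 6 weeks (-0.37, limma adjusted p 0.323). Nor did it pass in the sBAT SVF at 6 weeks (-0.47, limma adjusted p 0.142, or -0.68 and 0.0507 after scaling). After median ratio scaling, NCF1 overlapped day 1 in the sBAT SVF at 3 weeks and in the iBAT SVF at 6 weeks. The summed level of 10 neutrophil markers was 120 to 222 FPKM at day 1, 20.5 to 51.2 at 3 weeks, 6.83 to 70.5 at 6 weeks and 42.7 to 146 at 12 weeks in the iBAT SVF, with MMP8 at 0 in all libraries of the 3 later ages. It was 213 to 563, 13.4 to 144, 23.3 to 124 and 77.2 to 184 at the same ages in the sBAT SVF, where MMP8 was at 0 in all libraries of day 1, 3 weeks and 12 weeks and MPO in all of 3 weeks. After median ratio scaling the sBAT SVF sum was 222 to 572 at day 1 and 42.9 to 273 at 3 weeks, which overlap. The part of neutrophils in the NCF1 level was not tested.

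As deposited, NCF1 and NCF4 were the 2 members of 4 called lower in the sBAT SVF at 3 weeks, at -1.21 (SE 0.24, limma adjusted p 0.000187) and -0.9 (SE 0.27, limma adjusted p 0.00496), where 71.2% of all genes were called and 69.8% were called lower. After median ratio scaling neither passed (limma adjusted p 0.132 and 0.291), and 32.6% of genes were called. In the joint test over all 4 ages, 4 of 4 members passed in the sBAT SVF, where 93.5% of all genes did. After median ratio scaling 3 of 4 passed there (NCF1 at limma adjusted p 0.126), and 49.1% of genes. NCF1 passed the joint test in the iBAT SVF (limma adjusted p 0.0291), where 36.4% of genes did, but not after scaling (limma adjusted p 0.0661). That call was also lost without iBAT replicate 1 of 3 weeks, replicate 3 of 3 weeks, replicate 1 of 12 weeks or replicate 2 of 12 weeks (limma adjusted p 0.0615 to 0.0944).

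**Figure D5:**
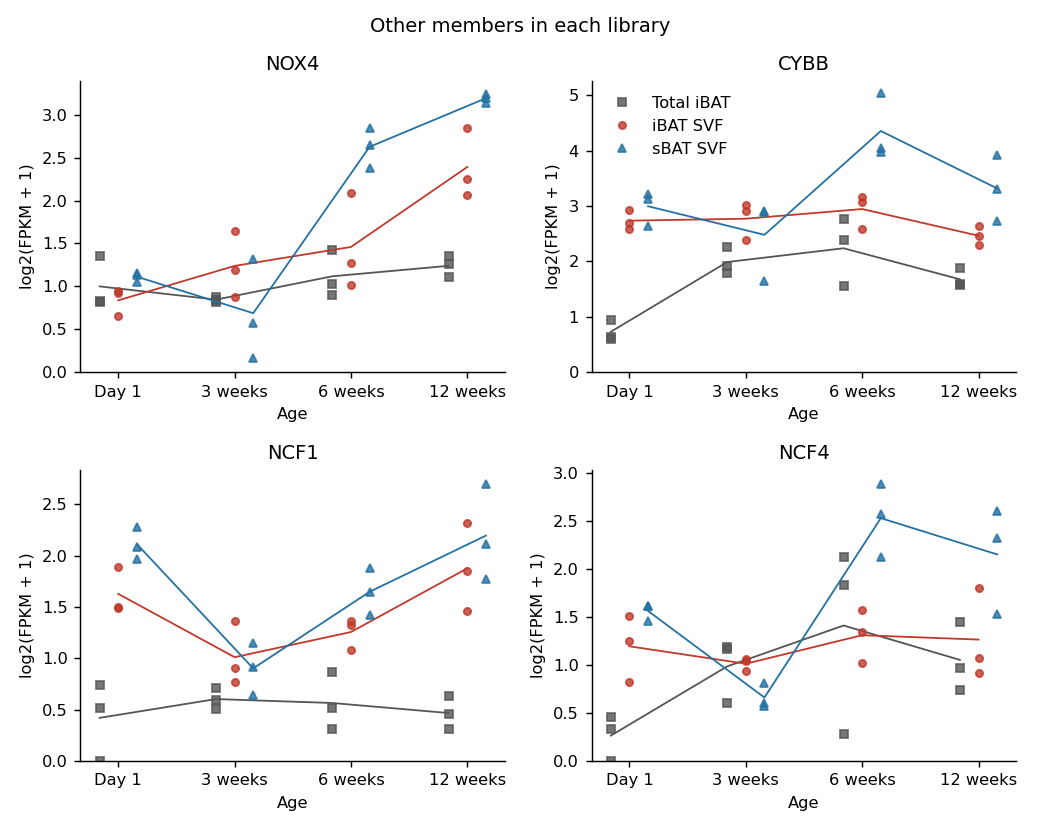
NOX4, CYBB, NCF1 and NCF4 in each of the 36 libraries, as log2(FPKM + 1) against age, with 1 symbol per library and lines through the group means. NOX4 ends at 7.83 to 8.45 FPKM in the sBAT SVF and at 3.19 to 6.22 in the iBAT SVF, and CYBB reaches 14.7 to 31.8 in the sBAT SVF at 6 weeks.

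Between the depots at 12 weeks, NOX4 and NCF4 were the 2 members of 4 called as deposited, both lower in the iBAT SVF, where 22.2% of genes were called and 20.4% were called lower. NOX4 differed by -0.8 (log2, iBAT minus sBAT, SE 0.28, limma adjusted p 0.0471) and NCF4 by -0.89 (SE 0.27, limma adjusted p 0.0232). After median ratio scaling the differences were -0.46 and -0.59 and neither passed (limma adjusted p 0.385 and 0.132), with 9.76% of genes called. Both calls were also lost without iBAT replicate 1, iBAT replicate 3, sBAT replicate 1 or sBAT replicate 2 of that age, and that of NOX4 also without sBAT replicate 3 (limma adjusted p 0.0748 to 0.173 over these fits). CYBB, at -0.85 (SE 0.34, limma adjusted p 0.0699), was at -0.51 after median ratio scaling (limma adjusted p 0.292). It passed in 3 of 16 alternatives, among them the fit without sBAT replicate 3 (limma adjusted p 0.0242). The 3 members called lower in the iBAT SVF at 6 weeks, where 2.47% of genes were called and 2.12% were called lower (NOX4 at -1.17, CYBB at -1.41 and NCF4 at -1.22), did not pass after scaling either (limma adjusted p 0.163, 0.0605 and 0.0553), with 1.05% of genes called. Those calls were also lost for at least 1 of the 3 genes without any of iBAT replicates 1, 2 and 3 or sBAT replicates 1 and 2 of 6 weeks (limma adjusted p 0.0522 to 0.224).

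In the limma test of whether the change from day 1 to 12 weeks differed between the depots, 0 of 4 members passed, 0 had an unadjusted p under 0.05, and 18.4% of genes were called. The estimates (change in iBAT minus change in sBAT) were -0.53 (SE 0.4) for NOX4, -0.59 (SE 0.48) for CYBB, 0.17 (SE 0.34) for NCF1 and -0.52 (SE 0.38) for NCF4. A difference between the depots in the NOX4 rise was thus not shown.

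Other proteins of the oxidase complexes were taken as a list of 16 genes. In total iBAT at 12 weeks, where 31.3% of all genes were called higher and 15.7% lower, 3 of 11 tested were called higher and 4 lower. The median of the list was 0.31 against 0.19 for all genes. Next to the DUOX genes, the ones with the largest changes were SH3PXD2B and SH3PXD2A, scaffold proteins related to NCF1 that organise NOX1 and NOX4 at sites of matrix breakdown. SH3PXD2B was at 1.48, 1.74 and 2.35 FPKM at day 1 and 13.1, 8.55 and 12.2 at 12 weeks, and rose by 2.1 (log2, SE 0.22, limma adjusted p 1.83e-05). SH3PXD2A rose by 1.76 (SE 0.21, limma adjusted p 4.15e-05). RAP1A, a small GTPase found with the phagocyte oxidase, rose by 0.41 (limma adjusted p 0.0236) as deposited and did not pass after median ratio scaling (limma adjusted p 0.217).

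In the iBAT SVF 1 of the 8 tested partners was called, CYBC1, a chaperone needed for the CYBB protein, which was at 6.02 to 10.3 FPKM at day 1 and 11.4 to 14.7 at 12 weeks (0.67, SE 0.2, limma adjusted p 0.0142). None was called without iBAT replicate 3 of day 1 or without iBAT replicate 2 of 12 weeks. With all libraries, 37.3% of all genes were called in the iBAT SVF. In the sBAT SVF RAC2, the leukocyte RAC protein (1.18, limma adjusted p 0.0202), RAP1A (0.78, limma adjusted p 0.0148) and CYBC1 (0.5, limma adjusted p 0.0486) were called higher of 8, and 0 of 8 after median ratio scaling. The shares of all genes called in this depot were 44.1% as deposited and 29.9% after scaling. RAC2 was at 9.29 to 14.5 FPKM at day 1 and 23.2 to 35.1 at 12 weeks there, and the summed level of 10 T cell markers was 11.4 to 15.8 FPKM and 64.2 to 160 in the same groups. The part of lymphocytes in the RAC2 level was not tested. Leaving out sBAT replicate 1 or 3 of day 1, or replicate 1 or 3 of 12 weeks, left 1 partner called, and leaving out the sBAT libraries of 3 weeks gave 6.

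Regulators of these enzymes (calcium sensors, kinases, chaperones and receptors upstream of them) were a list of 22 genes, of which 20 were tested in each tissue. At 12 weeks against day 1, 9 were called higher and 0 lower in total iBAT (median 0.46), 1 higher and 7 lower in the iBAT SVF (median -0.38 against -0.1 for all genes) and 6 higher and 1 lower in the sBAT SVF (median 0.27 against 0.41 for all genes). The all-gene median in total iBAT was 0.19, and the shares of all genes called were 47%, 37.3% and 44.1% in the same order, so the list's shares are near the background. After scaling, the sBAT count was 2 higher and 6 lower, and it was 8 higher and 3 lower in total iBAT. Without sBAT replicate 2 of 12 weeks the 7 sBAT calls became 4. CALM3, a calmodulin gene whose product raises the calcium sensitivity of NOX5, was higher in all 3 tissues. It was at 56.3 to 64.5 FPKM at day 1 and 107 to 121 at 12 weeks in total iBAT (0.92, limma adjusted p 4.79e-05). It was at 38.5 to 58.7 and 98.9 to 106 in the iBAT SVF (1.14, limma adjusted p 0.000419), and it rose by 1.08 in the sBAT SVF (limma adjusted p 0.00047), or by 0.59 after scaling (limma adjusted p 0.0132).

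PRKCA, a calcium-dependent kinase that can phosphorylate NOX5, was at 3.4, 4.8 and 5.03 FPKM at day 1 and 16.1, 9.82 and 23.1 at 12 weeks in total iBAT and rose by 1.62 (limma adjusted p 0.000387). PRKCA differed by -0.4 in the iBAT SVF (limma adjusted p 0.108) and by -0.43 in the sBAT SVF (limma adjusted p 0.0756), and passed in the latter after scaling (-0.84, limma adjusted p 0.00466). The angiotensin II receptor AGTR2 was at 18.1, 13.9 and 17.2 FPKM at day 1 in the iBAT SVF and 0, 0.14 and 0.09 at 12 weeks, and fell by 4 (log2, SE 0.22, limma adjusted p 1.95e-10). AGTR2 in the sBAT SVF was at 6.73, 12.1 and 5.09 at day 1 and listed at 0 in all 3 libraries of 12 weeks. AGTR1, the receptor through which angiotensin II is best known to raise NADPH oxidase activity, rose in total iBAT by 1.05 (limma adjusted p 0.00159). In the sBAT SVF AGTR1 rose by 0.81 as deposited (limma adjusted p 0.0162) and not after scaling (limma adjusted p 0.274). AGTR1 fell in the iBAT SVF by 0.9 (limma adjusted p 0.0109), from 84.3, 115 and 89.9 FPKM at day 1 to 49.1, 46.4 and 57.8 at 12 weeks. PRKCB, a protein kinase C gene that is prominent in leukocytes, rose in the sBAT SVF by 1.15 (limma adjusted p 0.0045), or by 0.74 after scaling (limma adjusted p 0.047). The chaperone gene HSP90AA1 (-1.38, limma adjusted p 0.000143) and the lipopolysaccharide receptor gene TLR4 (-1.31, limma adjusted p 0.000204) fell in the iBAT SVF.

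The enzymes that remove superoxide and peroxide were a list of 28 genes, of which 24 were tested in each tissue. At 12 weeks 10 were called higher and 7 lower in total iBAT, 6 higher and 4 lower in the iBAT SVF, and 9 higher and 1 lower in the sBAT SVF (4 higher and 5 lower after scaling). The shares of all genes called were 47%, 37.3% and 44.1%, and the list's medians of 0.11, 0.27 and 0.41 stood beside 0.19, -0.1 and 0.41 for all genes. SOD3, the secreted superoxide dismutase, was higher in all 3. It was at 25.7, 24.2 and 9.84 FPKM at day 1 and 152, 216 and 149 at 12 weeks in the iBAT SVF (3.14, SE 0.35, limma adjusted p 1.93e-06). It was at 19.7, 14.8 and 11.3 and then 113, 118 and 192 in the sBAT SVF (3.12, SE 0.35, limma adjusted p 1.62e-06), or 2.63 higher after scaling (limma adjusted p 1.27e-05). In total iBAT SOD3 was at 60.9 to 71.3 and 178 to 296 (1.87, SE 0.3, limma adjusted p 0.000331).

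Among the called genes that fell most in total iBAT were 2 mitochondrial enzymes. SOD2, the superoxide dismutase of the mitochondrial matrix, was at 482, 638 and 651 FPKM at day 1 and 226, 186 and 187 at 12 weeks, and fell by 1.55 (log2, SE 0.23, limma adjusted p 0.000186). PRDX3, the mitochondrial peroxiredoxin, fell by 1.14 (SE 0.21, limma adjusted p 0.000968). GPX3, a secreted glutathione peroxidase, fell by 1.5 in total iBAT (limma adjusted p 0.0476) and rose in both SVF depots, by 1.46 in iBAT (limma adjusted p 0.0115) and by 2.34 in sBAT (limma adjusted p 0.000236), or by 1.85 there after scaling (limma adjusted p 0.00195). GPX7, a peroxidase of the endoplasmic reticulum, rose in total iBAT by 1.91 (limma adjusted p 8.42e-05). NQO1, which reduces quinones, rose in total iBAT (1.32, limma adjusted p 0.0107), the iBAT SVF (1.16, limma adjusted p 0.0472) and the sBAT SVF (1.76, limma adjusted p 0.00379, or 1.29 and 0.0373 after scaling).

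The 3 called genes that fell most in the iBAT SVF act on haem and glutathione. HMOX1, which breaks down haem, was at 97.5, 75.6 and 127 FPKM at day 1 and 24, 19.7 and 26.4 at 12 weeks and fell by 2.03 (log2, SE 0.3, limma adjusted p 3.96e-05). GCLM and GCLC, the subunits of the enzyme that starts glutathione synthesis, fell by 1.14 (limma adjusted p 0.000373) and by 0.85 (limma adjusted p 0.0149). GCLM also fell in the sBAT SVF, by 0.54 (limma adjusted p 0.0447), and was at -0.91 after scaling (limma adjusted p 0.00144). In total iBAT GCLM fell by 0.62 (limma adjusted p 0.0432) and GCLC rose by 0.72 (limma adjusted p 0.0054). The iBAT SVF count went from 10 called to 6 without iBAT replicate 3 of day 1 and to 16 without the sBAT libraries of 3 weeks, and the sBAT SVF count from 10 to 6 without sBAT replicate 1 of day 1 or without sBAT replicate 3 of 12 weeks.

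By correlation over the 24 SVF libraries (log2(FPKM + 1) after median ratio scaling, 8695 genes compared), the genes most like NOX5 were EDEM2 (Pearson r 0.92), MSX2 (0.92), IL34 (0.91), NUCB1 (0.90) and PSAP (0.90). Over the 12 total iBAT libraries the same genes had r of 0.58, 0.64, 0.83, 0.88 and 0.83 with NOX5. IL34, a ligand of the macrophage receptor CSF1R, went from a mean of 3.68 to 20.2 FPKM in the iBAT SVF between day 1 and 12 weeks and from 3.56 to 10.5 in the sBAT SVF. Many genes change with age in these libraries, the points share age and depot, and by Spearman correlation, or on values as deposited, 0 of these 5 were among the closest 5.

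The genes most like NOX4 were PIK3R6 (0.89), FABP7 (0.85) and IDNK (0.84), and those most like CYBB were KIAA1211L (0.88), WWP1 (0.88) and EVI2A (0.87). In total iBAT their r was 0.25, 0.55 and 0.21 with NOX4 and 0.89, -0.32 and 0.92 with CYBB. For NCF1 they were ADCY7 (0.79), DBNDD2 (0.79) and RASSF5 (0.77), and for NCF4 IFNGR1 (0.79), AKAP10 (0.79) and PDE1C (0.75). In total iBAT these had r of 0.08, 0.04 and 0.14 with NCF1 and 0.09, 0.10 and 0.27 with NCF4. By Spearman correlation 1 of the 3 genes stayed among the closest 3 for NOX4, CYBB and NCF4, and 0 for NCF1. On values as deposited 1 stayed for NCF4. Among the members, CYBB and NCF4, which act in the same complex, had r of 0.63 over the SVF libraries and 0.85 over total iBAT. NOX5 had r of -0.24 with CYBB and 0.42 with NOX4 in the SVF, and 0.71 and -0.04 in total iBAT.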

How the data were processed

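Bulk RNA sequencing of 36 libraries (12 groups of 3) was used as 2 tables of FPKM that the authors deposited, one for total iBAT and one for both SVF depots. Per the submitters' processing notes, HISAT2 2.0.4, Bowtie2 2.2.5 and DESeq2 were used with the build OryCun2.0; the quantifier and the annotation are not given in the sources used here. A further 3 single-cell samples were not analysed here. The members and gene lists were chosen with earlier results of these data known. Genes with at least 1 FPKM in at least 3 libraries were tested (12853 in total iBAT, 13274 in the SVF) with limma 3.58.1 in R 4.3.3 on log2(FPKM + 1), with 1 mean per group, all groups of a table in the fit, a variance trend and Benjamini-Hochberg adjustment over all tested genes. A gene can meet the filter only through the groups where it is high, as NOX5, CYBB and NCF4 did in total iBAT. Limma was also tested on simulated data. NOX5 in the SVF was left out of all counts of calls.

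Read counts were not used. From the steps between low FPKM values, relative depth in total iBAT ran from 0.559 to 0.623 at day 1 to 1.36 to 1.38 at 12 weeks, so low values at day 1 rest on fewer reads; SVF depth is not given because the estimate was not firm for the sBAT libraries of 3 weeks. The number of genes above 0 was 12416 to 13888 in those libraries and up to 17799 elsewhere. Named genes were all members, up to 3 called genes with the largest change per list, direction and tissue, and the 3 genes (5 for NOX5) most correlated with each member, from genes with a group mean of at least 5 FPKM. UCP1, ADORA1, LOC100009266, COL1A1, CSF1R, PTPRC, PDGFRA, ADIPOQ and PECAM1 were named after their values were seen. GLCE was named as the neighbour of NOX5, outside these rules. Alternatives were another pseudocount, other filters and scalings, no variance trend, only the groups compared, a replicate block, and each replicate left out. Leaving out the sBAT SVF libraries of 3 weeks was added after seeing the data. No sequence table or genome of the same build was used, so no sequences or coordinates are given.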

Additional observations from a re-analysis of the deposited data

How the results depend on the processing

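NOX4 at 12 weeks in both SVF depots, CYBB in total iBAT at 3, 6 and 12 weeks and NOX5 in total iBAT at 6 and 12 weeks kept their direction and their call under every alternative in which they were tested. NOX5 in total iBAT was not tested at 12 weeks with a filter at 5 FPKM or with only the groups compared, because it then fell below the filter, nor was CYBB there with the filter at 5 FPKM. The cause of each other change was not tested, except that a filter at 5 FPKM tests fewer genes. Of 4 tested members, the number called at 12 weeks in total iBAT went from 2 to 0 with the filter at 5 FPKM and to 1 with only the groups compared. The number called at any age went from 2 to 0 with that filter in total iBAT and from 4 to 2 in the sBAT SVF. In the iBAT SVF it went from 2 to 1 with no filter, the filter at 5 FPKM, median ratio scaling, upper quartile scaling or the 2 dominant genes left out. Between the depots at 12 weeks it went from 2 to 1 with a pseudocount of 0.1, no filter or only the groups compared, and to 0 with the filter at 5 FPKM, median ratio scaling or upper quartile scaling. With each replicate left out in turn, the counts ran from 0 to 2 between the depots at 12 weeks, from 1 to 2 in the iBAT SVF at any age, from 1 to 2 in the sBAT SVF at 12 weeks (2 without replicate 3 of 12 weeks) and from 2 to 3 in total iBAT at any age. Without the sBAT libraries of 3 weeks, an alternative chosen after seeing the data, 3 members were called between the depots at 12 weeks and 3 in the sBAT SVF at any age.

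Among the differences from day 1, between the depots at 6 and 12 weeks and in the depot by age test, those whose sign turned had not passed as deposited. In the sBAT SVF at 12 weeks CYBB was at -0.11 with median ratio scaling and -0.05 without the dominant genes, and NCF1 at -0.28, -0.25 and, with upper quartile scaling, -0.16. At 3 weeks there NOX4 was at 0.1 with median ratio scaling and 0.12 without the dominant genes, CYBB was at 0.49 and 0.56 under the same alternatives, and CYBB was at 0.24 with upper quartile scaling. NOX4 in total iBAT at 6 weeks was at -0.02 with median ratio scaling. With each replicate left out in turn, NCF4 in the iBAT SVF ran from -0.2 to 0.24 at 12 weeks and from -0.07 to 0.27 at 6 weeks, NCF1 in the sBAT SVF at 12 weeks from -0.17 to 0.29, and the NCF1 depot by age difference from -0.06 to 0.42. Likewise NOX4 in total iBAT ran from -0.25 to 0.02 at 3 weeks and from -0.04 to 0.29 at 6 weeks, and CYBB in the iBAT SVF at 3 weeks from -0.09 to 0.23. With a pseudocount of 0.1 the NOX5 difference from day 1 to 12 weeks was 6.08 in the iBAT SVF and 3.39 in the sBAT SVF, and NOX5 in total iBAT at 3 weeks passed (2.71, limma adjusted p 0.0144). Same-numbered iBAT and sBAT libraries did not deviate together at every age (correlations from -0.28 to 0.58), though all 3 did at 12 weeks (0.25 to 0.5), and the numbers were not taken as pairs. A replicate block left the counts of members called the same, at 2 in total iBAT, 1 in each SVF depot and 2 between the depots at 12 weeks (NOX4 and NCF4, limma adjusted p 0.0372 and 0.013). Values near 0 FPKM rest on few reads.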

Other observations

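GLCE, which makes part of the heparan sulphate chain and neighbours NOX5 in the RefSeq annotation (assembly mOryCun1.1, used for gene order only), was at 13.3, 18.7 and 12.2 FPKM at day 1 and 17.2, 15.9 and 16.2 at 12 weeks in the iBAT SVF. These groups overlap, while those of NOX5, which was chosen for its SVF values, do not. No overlap between these ages was found for 54.4% of all genes in this fraction. In total iBAT, GLCE was at 5.46, 5.01 and 2.78 FPKM at day 1 and 12.3, 12.3 and 13.5 at 12 weeks. There its groups, like those of NOX5 and of 57.1% of all genes, do not overlap.

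FABP7, a fatty acid binding protein among the genes most like NOX4, went from a mean of 3.59 to 29.3 FPKM in the iBAT SVF and from 3.91 to 64.8 in the sBAT SVF between day 1 and 12 weeks. It was chosen for its likeness to NOX4, so these means are a description.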
